A study of Sus scrofa with 22 samples.

Results

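Naturally fertilized (NF) pig fetuses were compared at day 35 and day 30 of gestation. The comparison used the libraries titled day35-NF (2 libraries) and day30-NF (2 libraries), 4 of the 22 samples of the series, and every gene measured in them. All 4 are labelled as body tissue of the fetus, with total RNA as the starting material; they were not cloned and carry no stated treatment or allele. The labelled sex is male for day 30 replicate 1, female for day 30 replicate 2, and male for both day 35 libraries. A second day comparison served for reference: fetuses cloned by somatic cell nuclear transfer and titled normal, 3 at day 30 and 3 at day 35, all labelled male. The labels do not state the breed, the part of the body taken or whether each library is 1 animal. The p-values thus measure a spread between libraries that may be technical. That spread was estimated over all 14 fetus libraries, which include clones titled abnormal at both days.

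In this window a pig fetus passes from organ formation to growth. Myoblasts, which carry MYOD1 and MYF5, fuse into fibres that make sarcomere proteins. Neurons extend axons filled with neurofilaments, and limb digits form under HOX and hedgehog control. Red cells shift from yolk sac globins (HBZ, HBE1) to those made in the fetal liver, which in pigs include the adult chain HBB. No sequence is shown, since the tables used here hold none.

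Matched counts, the expected counts that could be assigned to a named gene, came to 5.92 to 7.65 M a library in the NF group, 66% to 66.5% of all its counts, with 10318 to 10888 genes detected. Day 30 replicate 1 stood apart. Across 9911 genes its Spearman correlation was 0.962 with the other day 30 library, 0.964 with day 35 replicate 1 and 0.954 with day 35 replicate 2. Day 30 replicate 2, in contrast, correlated at 0.9895 with day 35 replicate 1 and at 0.983 with day 35 replicate 2, as closely as the 2 day 35 libraries with each other (0.982). Each NF library correlated at 0.8103 to 0.905 with the normal clones. The Y-linked genes went against both day 30 labels. EIF1AY, a Y-linked translation initiation factor gene, read 0 CPM (counts per M counts of the TMM-scaled library) in the library labelled male and 33.5 CPM in the library labelled female, against 31.6 and 27.3 CPM in the day 35 libraries. A further 3 genes annotated on the Y chromosome, chosen after their values were seen, had the same pattern: with EIF1AY they summed to 0.273, 1069, 996.4 and 986.6 CPM. In day 30 replicate 1 these Y-linked levels cannot be told apart from anything else particular to that library. Many list medians below are therefore also given without a day 30 library. The plot of list medians shows both left-out values for each list.

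No gene passed the test between the days. edgeR's quasi-likelihood test with Benjamini-Hochberg adjustment called 0 of 9911 genes (0%) at an adjusted p of 0.05, and the lowest adjusted p was 0.4826. Without adjustment 351 genes (3.54%) had p under 0.05, 86 with higher and 265 with lower values at day 35. When the shallowest abnormal clone library was left out of the shared fit, that count was 750 of 10275 genes. The median size of a day effect was 0.22 on the log2 scale, against a median standard error of 0.37. A log2 difference past 1 was fitted for 918 genes, of which 494 (4.98% of those tested) had no overlap between the libraries of the days. Non-overlap of 2 against 2 libraries is common: it held for 2775 genes (28%), 1216 higher (12.3%) and 1559 lower (15.7%) at day 35.

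The count of called genes moved with the tool and with the day 30 library kept. DESeq2 called 11 genes, 2 higher and 9 lower, and limma on log2(TPM + 1) called 1. Some of the 11 rested on 1 library or on values near 0. GPKOW, called higher, read 39.8 CPM in day 35 replicate 1 and 0 in the other NF libraries. CRB2 and GGT6, called lower, read 1.5 and 0.136 CPM in day 30 replicate 1 and 0 elsewhere. Leaving out day 30 replicate 2 gave 22 calls in the shared fit, 15 higher and 7 lower, and 153 in a fit of the NF libraries alone. Leaving out day 30 replicate 1 gave 0 calls in the shared fit and 4 in the NF fit. With replicate 1 as the only day 30 library, 4 of the 22 called genes were the Y-linked genes above. The same 22 genes were called with labelled sex as a covariate, since the label female stands on day 30 replicate 2 alone.

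Over 32 gene lists that cover organs, cell types and pathways, 604 of the 952 listed genes could be tested and 0 passed (0% of all genes did). Of the 604, 40 had an unadjusted edgeR p under 0.05 (3.54% of all genes did). Of the 30 lists with at least 5 tested genes, 25 had a median log2 difference within 0.5 of 0, where the median over all genes was -0.01. The 5 past that limit were eye lens and retina (1.26) and endothelium (0.71) on the higher side, and cholesterol synthesis (-0.89), heart (-0.63) and neurons (-0.59) on the lower side. Without day 30 replicate 1, a single list was past the limit, eye lens and retina, whose 6 genes summed to no more than 13.3 CPM in any NF library. Without day 30 replicate 2, 8 lists were past it. In the normal clones 15 of the 30 medians were past 0.5, and 13 of the 30 had the same sign as in the NF fetuses. In what follows, the 3 most abundant tested members of each list were named by a fixed rule, and other members were chosen after their values were seen.

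**Figure D1:**
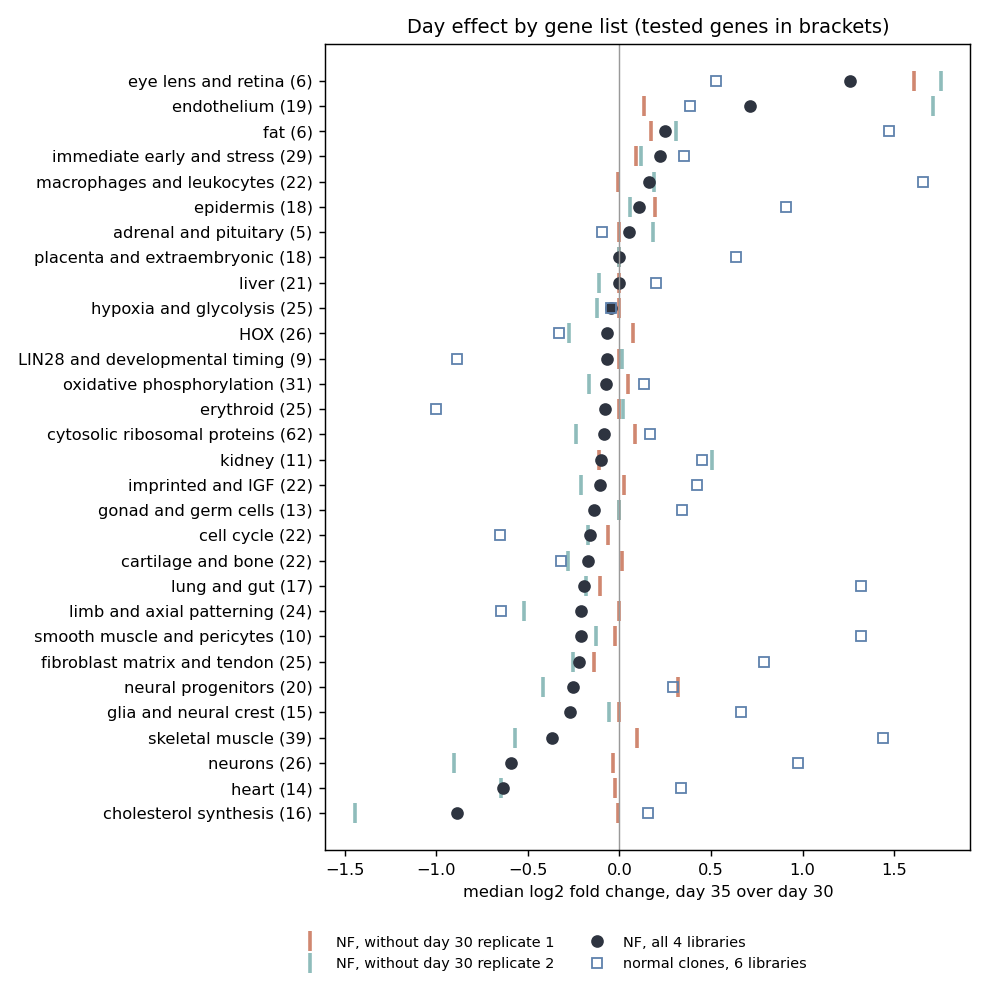
Median log2 fold change between day 35 and day 30 (x axis) of each gene list with at least 5 tested genes (y axis), for the NF fetuses with all 4 libraries (filled circles), without either day 30 library (bars) and for the 6 normal clone libraries (open squares). Most circles lie within 0.5 of 0, and without day 30 replicate 1 the medians of the cholesterol synthesis, heart and neuron lists move to -0.01, -0.03 and -0.03.

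Contractile genes of skeletal muscle stayed at low values on both days in the NF fetuses. Of 39 tested members of the skeletal muscle list 0 passed the test, 27 had lower and 11 higher fitted values at day 35, and 10 did not overlap (28% of all genes did not), 5 in each direction. The list median of -0.37 was 0.10 without day 30 replicate 1 and -0.57 without replicate 2. MYOD1, the factor that commits cells to the muscle lineage, read 101.1 and 140.6 CPM at day 30 and 149.1 and 206.2 CPM at day 35. The day 35 libraries lay above the day 30 libraries, by 0.56 ± 0.66 (log2, SE, n = 2 a day). MYOG, which drives myoblasts to differentiate, read 126.5 and 62.4 CPM at day 30 and 70.6 and 56.3 at day 35, so the groups overlapped. The intermediate filament gene DES read 342 and 347.9 against 344.8 and 257 CPM. Among sarcomere genes, the fast light chain MYL1 read 8.46 and 3.2, then 1.88 and 1.05 CPM, and the slow troponin TNNI1 read 29.6, 4.88, 5.47 and 2.45 CPM. The lower TNNI1 values were thus a gap between day 30 replicate 1 and the other 3 libraries. The whole list summed to 1373 and 1090 CPM at day 30 and 1171 and 1141 CPM at day 35, below the 1704 to 7262 CPM of the normal clones. In the clones 11 members were called higher at day 35 (5.35% of all genes were) and 0 lower (3.84% of all genes). ACTA1, the skeletal actin, stood at 1.4 to 4.23 CPM in the NF libraries and rose from a mean of 37.6 to 280 CPM in the clones. Fewer cells of a type and less RNA per cell cannot be told apart in such bulk samples.

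The heart list had 14 tested members and 0 calls, with a summed level of 1429, 660.7, 777.2 and 800.7 CPM. Its median of -0.63 was -0.03 without day 30 replicate 1. ACTC1, the cardiac actin that young skeletal muscle also makes, carried most of that sum, at 1322 and 557.7 CPM at day 30 and 692.8 and 727.9 at day 35. TBX5, needed for heart and forelimb, read 48.3 and 14.5, then 13.5 and 18.5 CPM, and the endoderm and heart factor GATA6 read 22.2 and 61.4, then 50.8 and 31.8 CPM. In each of these genes day 30 replicate 2 lay with the day 35 libraries or beyond them.

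Of 26 tested neuron genes 0 were called; 22 had lower fitted values at day 35, 7 of them without overlap (15.7% of all genes were), and 1 gene was higher without overlap (12.3% of all genes). The neurofilament genes NEFM and NEFL, which fill axons, were high in 1 library: NEFM read 325.2 and 67.8 CPM at day 30 and 82.4 and 82.6 at day 35, and NEFL 253, 67.8, 76.8 and 94.3 CPM. STMN2, a microtubule regulator of growing axons, had another order, with 233.7 and 317.9, then 253.6 and 243.2 CPM. UCHL1, an abundant neuronal deubiquitinase, read 184.2 and 95.1, then 136.8 and 97.8 CPM. PRPH, the filament of peripheral neurons, read 18.6 and 10.7, then 7.01 and 0.52 CPM; INA read 8.73 and 6.4, then 5.64 and 1.22 CPM. These last 2 genes separated the days, both with their lowest value in day 35 replicate 2. Summed, the list stood at 1375, 830.3, 872.3 and 760.4 CPM, against 3293 to 8354 CPM in the normal clones. There 6 members were called higher (5.35% of all genes were) and 0 lower (3.84% of all genes). The median of the list was -0.59 in the NF fetuses and 0.97 in the clones; without day 30 replicate 1 it was -0.03 in the NF fetuses, and without replicate 2 it was -0.91.

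Neural progenitor and glial genes gave 0 calls among 20 and 15 members. The progenitor median of -0.25 was 0.32 without day 30 replicate 1 and -0.42 without replicate 2, and the glial median of -0.27 was 0.00 and -0.06. VIM, an intermediate filament shared with mesenchyme, read 5562 and 4345, then 3865 and 4205 CPM, and NES, the filament of neural and muscle progenitors, 2051 and 1265, then 1504 and 1675 CPM. The Notch pathway factor HES6 read 64.9 and 46.5, then 46.2 and 70.1 CPM. Among neural crest genes the endothelin receptor EDNRB read 19.5 and 76.8, then 65.7 and 68.8 CPM, and the receptor KIT 20.2 and 38 against 34.4 and 37.2 CPM. The glial glutamate transporter SLC1A3 read 26.1 and 15.1, then 16.1 and 15 CPM. Day 30 replicate 1 was the outlying library in the last 3 genes.

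**Figure D2:**
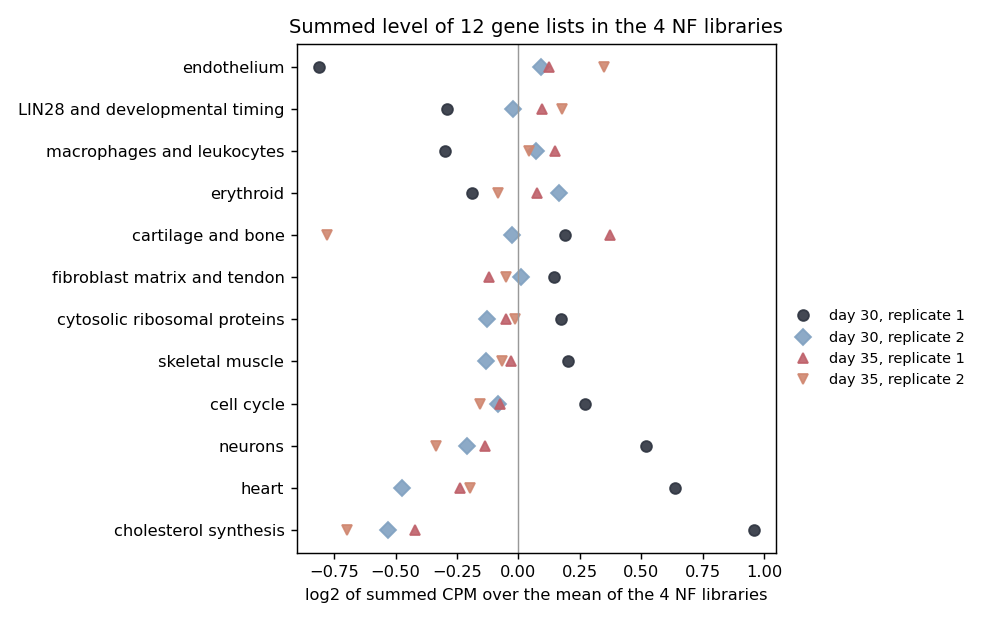
Summed CPM of 12 gene lists (y axis) in each of the 4 NF libraries, as log2 of the level over the mean of the 4 (x axis; 1 symbol a library). Day 30 replicate 1 lies farthest from the other 3 in most of these lists, including the cholesterol synthesis, heart, neuron, cell cycle and endothelium lists. In those named, day 30 replicate 2 lies near the day 35 libraries. In the cartilage and bone list day 35 replicate 2 lies farthest out.

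Endothelial genes had higher fitted values at day 35 for 18 of 19 tested members, with 0 calls; 7 were higher without overlap (12.3% of all genes were) and 1, VWF, lower (15.7% of all genes). KDR, the main VEGF receptor of endothelium, read 62 CPM in day 30 replicate 1 and 343.3 in replicate 2, then 323.1 and 326.6 CPM. PECAM1, an endothelial adhesion protein, read 35.8 and 165.6, then 174.8 and 203 CPM. ENG, a TGF-beta co-receptor of endothelium and mesenchyme, read 662.5 and 865.9, then 929.4 and 979.1 CPM. CLDN5, a tight junction protein, read 7.64 and 23.6, then 25.1 and 43.5 CPM. For KDR and PECAM1 the gap lay between replicate 1 and the other 3 libraries, and the list median of 0.71 was 0.13 without it and 1.71 without replicate 2. VWF, the endothelial clotting factor, ran the other way, at 13.9 and 9.45 CPM at day 30 and 7.35 and 6.29 at day 35 (log2 difference -0.78 ± 0.22 SE, edgeR unadjusted p = 0.0041, adjusted p = 1). APLN, the ligand that guides growing vessels, was in no list. It read 25.6 and 43.1, then 54.7 and 104 CPM.

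Blood genes gave 0 calls among 25 erythroid members, with a median of -0.08 that was 0.00 without day 30 replicate 1 and 0.02 without replicate 2, and the embryonic globins were almost absent on both days. HBB read 54.5 and 214.2 CPM at day 30 and 177 and 167.6 CPM at day 35, which overlap. HBE1 had 1, 7, 7 and 4 counts in the 4 libraries and HBZ 0, 3, 1 and 1. On the length-scaled TPM scale HBB stood at 204, 981, 746 and 689, against 0.51, 4.87, 5.03 and 2.86 for HBE1. HBE1 made up 0.25% (95% exact binomial interval 0.00633 to 1.38) and 0.496% (0.2 to 1.02) of the summed HBE1 and HBB counts at day 30, and 0.672% (0.271 to 1.38) and 0.415% (0.113 to 1.06) at day 35; the intervals cover counting error only. In the normal clones that share was 72.9% to 94.9% at day 30 and 0.338% to 1.27% at day 35. At day 30 the NF libraries thus had the low embryonic share that the clones had at day 35, with a lower HBB level. HBE1 fell in the clones by 6.30 on the log2 scale (adjusted p = 0.017) and HBZ by 5.91 (adjusted p = 0.016); the test of the NF against the clone day effect did not call either gene. TFRC, the transferrin receptor that takes up iron, read 155.1 and 139.3, then 128.6 and 111.3 CPM, and the membrane skeleton gene EPB41 127.6 and 95.3, then 105.9 and 89.3 CPM. Of 22 macrophage and leukocyte genes 0 were called, and the list median of 0.16 was -0.01 without day 30 replicate 1. The colony stimulating factor receptor CSF1R read 15 and 16.2, then 15.7 and 13.8 CPM, and SPI1, a myeloid transcription factor, 10.8 and 18.9, then 19.3 and 19 CPM.

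Cholesterol synthesis had lower fitted values at day 35 in 16 of 16 tested members, with 0 calls. Of these, 3 were lower without overlap (15.7% of all genes were). HMGCS1, an early enzyme of the pathway, read 274 and 79.1 CPM at day 30 and 96.1 and 64.1 at day 35. SQLE, the squalene epoxidase, read 166 and 59.5, then 68.1 and 48 CPM, and FDFT1, the squalene synthase, 166 and 48.5, then 49.9 and 30.1 CPM. In these 3 genes day 30 replicate 1 was the high library and the other 3 were close. The list summed to 1977, 704.2, 760.9 and 626.7 CPM; the median of -0.89 became -0.01 without replicate 1 and -1.45 without replicate 2. The normal clones summed to 1813 to 2008 CPM, near day 30 replicate 1.

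The connective tissue genes made up a large share of these libraries. The fibroblast matrix and tendon list summed to 81282 and 74108 CPM at day 30 and 67813 and 71162 CPM at day 35, against 19695 to 41775 CPM in the normal clones. Of its 25 tested members 0 were called. Without overlap, 14 were lower at day 35 (15.7% of all genes were) and 2 were higher (12.3% of all genes). The fibrillar collagen COL3A1 read 21660 and 22620, then 19930 and 18040 CPM, and COL1A2 15990 and 12070, then 10240 and 8578 CPM, with the days apart in both. Fibronectin (FN1) read 9348 and 7325, then 7317 and 9070 CPM, with overlap. The small proteoglycan genes OGN and ASPN read 423 and 388, then 310 and 221 CPM, and 298 and 305, then 221 and 199 CPM. The fitted differences were -0.22 ± 0.19 for COL3A1 and -0.58 ± 0.42 for COL1A2 (log2, SE). The list median was -0.22 with all libraries and -0.14 without day 30 replicate 1. In the clones 9 members were called higher (5.35% of all genes were) and 1 lower (3.84% of all genes). Smooth muscle genes had no common direction: TAGLN, an actin binding protein, read 1113 and 630.2, then 694.6 and 1425 CPM, the actin ACTA2 757.9 and 182.6, then 194.5 and 202.2 CPM, and the pericyte proteoglycan CSPG4 749.3 and 1212, then 1428 and 1130 CPM.

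Cartilage genes differed more between the day 35 libraries than between the days. COL11A1, a fibrillar collagen of cartilage, read 1905 and 1390, then 1736 and 798.5 CPM, COL11A2 1189 and 1167, then 1661 and 641.2 CPM, and COL9A2 966.4 and 696.3, then 916.5 and 384 CPM. Day 35 replicate 2 was the lowest library in each, and the list summed to 6037, 5205, 6855 and 3083 CPM. Its median of -0.17 was 0.01 without day 30 replicate 1 and -0.28 without replicate 2. SOX9, the factor that turns cartilage genes on, was instead highest there, at 72.3 CPM against 42.5 to 51.3 CPM in the other 3.

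HOX genes place cells along the body and limb axes. Of 26 tested members 0 were called; 5 had an unadjusted p under 0.05 (3.54% of all genes did). The days did not overlap for 11 members, 6 higher (12.3% of all genes were) and 5 lower (15.7% of all genes). The list median of -0.07 was 0.07 without day 30 replicate 1 and -0.28 without replicate 2. The 3 most abundant read, for HOXA6, 121.2 and 99.3, then 104.8 and 59.4 CPM, for HOXA5 73.1 and 42.4, then 56.8 and 33 CPM, and for HOXB2 25.1 and 29.3, then 34 and 41.9 CPM. Split after their values were seen, 17 members of paralog groups 1 to 8 had a median of 0.15, with 6 higher and 1 lower without overlap. The 9 members of groups 9 to 13, which pattern the trunk end and the distal limb, had a median of -1.25, with 8 lower, 4 of them without overlap, and 0 higher without overlap. HOXA10 read 55.7 and 31.4, then 27.5 and 11.7 CPM, HOXA9 18.1 and 12, then 9.41 and 6.64 CPM, and HOXD13 55.1 and 3.66, then 4.11 and 1.4 CPM. HOXA9 and HOXA10 separated the days, while HOXD13 was high in 1 library. Without day 30 replicate 1 the medians were 0.25 and -0.59. In the normal clones they were -0.33 and -0.52, and the HOX list summed to 1403 to 2134 CPM there, above the 324.3 to 557.8 CPM of the NF libraries.

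Limb and axial patterning genes gave 0 calls among 24, with 5 at an unadjusted p under 0.05 (3.54% of all genes were). The median of -0.21 was 0.00 without day 30 replicate 1 and -0.52 without replicate 2. TBX15, a mesenchyme factor, read 126.4 and 110.1, then 114.1 and 124.4 CPM, TBX18 85.3 and 96.5, then 82.3 and 111.1 CPM, and the growth signal WNT5A 118.3 and 58.2, then 60 and 66.4 CPM. None of the 3 separated the days. PTCH1, the hedgehog receptor whose own transcription hedgehog signalling turns up, did separate them. It read 117 and 78.4 CPM at day 30 and 48.9 and 34.6 CPM at day 35, a log2 difference of -1.23 ± 0.47 (SE; edgeR unadjusted p = 0.023, adjusted p = 1). The clones differed by -1.33. GLI1, another hedgehog target, overlapped, at 65.9 and 48.3, then 61.7 and 25.9 CPM.

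Developmental timing genes gave 0 calls among 9 in the NF fetuses. In the clones 4 of the 9 were called lower (3.84% of all genes were), and the test of the difference called 0 of the 9. The list median of -0.07 was 0.00 without day 30 replicate 1 and 0.02 without replicate 2. HMGA2, a chromatin protein of fetal growth that let-7 represses, read 145.7 and 89 CPM at day 30 and 92.7 and 101.2 CPM at day 35, while in the normal clones it fell from a mean of 617 to 101 CPM (-2.62, adjusted p = 0.023). Its relative HMGA1 read 555.9 and 914.4, then 1060 and 1140 CPM, the microRNA processing enzyme DICER1 230.2 and 195.3, then 197.5 and 193.9 CPM, and the RNA binding IGF2BP2 131 and 158.9, then 140.6 and 135.8 CPM. LIN28A, which blocks let-7 maturation, had at most 0.34 CPM in any NF library and was not tested. The fetal growth factor IGF2 read 798.7 and 1089, then 1160 and 1361 CPM, without overlap (0.42 ± 0.27, log2, SE), and its clearance receptor IGF2R 725.7 and 953.6, then 903 and 1004 CPM. The imprinted gene PEG10 read 1685 and 1259, then 1312 and 1465 CPM.

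Proliferation and metabolism genes gave 0 calls. Of 22 cell cycle genes 19 had lower fitted values at day 35, 5 of them lower without overlap (15.7% of all genes were), with a list median of -0.16, and of -0.06 without day 30 replicate 1. The topoisomerase TOP2A read 628.2 and 471.1, then 445 and 367.8 CPM, the replication helicase subunit MCM2 481.7 and 383.3, then 395.2 and 446.8 CPM, and MYBL2, a cell cycle transcription factor, 368.7 and 270.3, then 291.8 and 366.6 CPM. The glycolysis gene PKM read 2132 and 2127, then 2161 and 1959 CPM. Ribosomal protein genes had a median of -0.08 over 62 members, which was 0.08 without day 30 replicate 1 and -0.24 without replicate 2, and RPL4 read 2702 and 2708, then 2601 and 2657 CPM. The chaperone gene HSP90AB1 read 4380 and 4374, then 4222 and 4131 CPM.

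Markers of liver and kidney were low in every NF library, which limits what a day comparison can show for those organs at this depth. AFP, the main plasma protein of fetal liver, was at 0 counts in all 4 libraries, where 3 counts over 2 libraries are 0.216 CPM at day 30 and 0.259 at day 35, and ALB stood at 1.23 and 0.76, then 0.86 and 0.87 CPM. The liver list summed to 91.8 to 108 CPM, against 123.3 to 328.9 CPM in the normal clones, and the kidney list to 118.6 to 152.3 CPM, against 398.8 to 427.8 CPM. The kidney median of -0.10 was 0.51 without day 30 replicate 2. RBP4, a retinol carrier, read 35.9 and 63.1, then 56.6 and 54.7 CPM. The nephron progenitor factor SIX2 read 96.3 and 56.4, then 69.3 and 73.4 CPM. The epidermis and placenta lists overlapped with the clones. They summed to 457.5 to 702.6 CPM, against 320.1 to 1228 CPM, and to 253.9 to 448 CPM, against 267.2 to 491.6 CPM. Epidermal KRT5, a basal keratin, read 210 and 294.4, then 201.5 and 401.7 CPM, and the epithelial keratin KRT8 61.1 and 54.3, then 33.4 and 67.8 CPM. PGF, a placental growth factor gene, read 36 and 68, then 92.7 and 86 CPM, without overlap.

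The remaining lists gave 0 calls as well. Among fat genes, CEBPA, a transcription factor of adipocytes and liver, read 34.1 and 45.1, then 43.8 and 53.5 CPM, and PPARG, the adipocyte master regulator, 6.14 and 14, then 11.8 and 21.3 CPM. Both overlapped between the days, and PPARG rose in the clones by 3.04 on the log2 scale (adjusted p = 0.019) from a mean of 0.487 CPM; the difference between the day effects was not called for any fat gene. INHBA, an activin subunit in the gonad list, read 103.4 and 127.3, then 109.5 and 219.8 CPM, and KITLG, the KIT ligand, 19.9 and 21.7, then 20.5 and 37.6 CPM. In both genes day 35 replicate 2 was the high library and the other 3 were close. The prostaglandin enzyme PTGS2 was also highest there, at 60.5 and 90.4, then 66.9 and 165.6 CPM, and stood at means of 1.26 and 0.669 CPM in the clones of the days. Respiratory chain genes gave 0 calls among 31, with 8 not overlapping (28% of all genes did not), 5 higher and 3 lower. COX6A1 read 266.4 and 180.4, then 187.3 and 199.7 CPM, and cytochrome c (CYCS) 199.5 and 220.8, then 209.7 and 280.8 CPM. The immediate early and stress list summed to 15755 and 15466 CPM at day 30 and 15000 and 16464 CPM at day 35, above the 9128 to 10952 CPM of the normal clones.

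The genes whose libraries separated the days most clearly, chosen after their values were seen, were ranked by unadjusted p among genes above 5 CPM in every NF library. PXDC1 headed the higher side, at 78.6 and 84.9 CPM at day 30 and 130 and 223 CPM at day 35 (1.11 ± 0.29, log2, SE; edgeR unadjusted p = 0.0026). SLC5A3, a myo-inositol transporter, headed the lower side, at 119 and 68.6, then 52.9 and 41.4 CPM (-0.99 ± 0.26; edgeR unadjusted p = 0.0028). NFYA, a subunit of the CCAAT-binding factor NF-Y, read 91.4 and 84.9, then 23.4 and 25.5 CPM, and had close values within each day. It fell in the normal clones too, by 2.92 on the log2 scale (adjusted p = 0.011); 12 of its 17 annotated transcripts were matched, so counts on the others are not in these values. The sarcomere gene MYOM1 read 46.5 and 14.2, then 7.01 and 5.77 CPM.

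Some genes had counts on 1 day and 0 on the other, and some of these were called by the other tools. LOC100621388, also called by DESeq2, had counts on both days, at 9.42 and 9.3, then 1.2 and 1.92 CPM. PDE4D, a cAMP phosphodiesterase, read 43 and 54.9 CPM at day 30 and 0 at day 35, at least 189-fold lower when day 35 is set at a floor of 3 counts summed over its libraries. RNPC3, a minor spliceosome protein, read 0 at day 30 and 34 and 29.4 CPM at day 35, at least 147-fold higher. ACKR2, a decoy chemokine receptor, read 0, then 3.93 and 4.72 CPM, at least 20-fold higher. Such jumps also occurred between replicates of 1 group: PDE4D was at 0 in 1 of 3 normal clones at day 30 and 65.6 and 57 CPM in the others, and TMEM200B was at 39.7 and 0 CPM in the NF libraries of day 30. Of the 26 annotated transcripts of PDE4D, 2 were matched, so this is a level of those records and not of the gene.

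Day 30 replicate 1 differed from the other NF libraries over many genes. Among 7181 genes with at least 5 CPM in all 4, it was at least 2-fold above all others for 84 and below for 146. The counts were 1 and 2 for day 30 replicate 2, 0 and 2 for day 35 replicate 1, and 16 and 30 for day 35 replicate 2. The largest gaps, named after their values were seen, included on the high side CRABP1, a retinoic acid binding protein, at 90.61 against 11.13 to 17.62 CPM. On the low side were interferon-responsive genes, with MX1 at 34.3 CPM against 250.5 to 385.3 CPM, IFIH1 at 5.19 against 38.1 to 54.4 CPM and USP18 at 18.3 against 86.7 to 93.3 CPM, and the chemokine CCL2, at 78.7 against 475.3 to 582.9 CPM. The Y-linked levels of this library moved with these gaps, and their part in them was not tested.

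**Figure D3:**
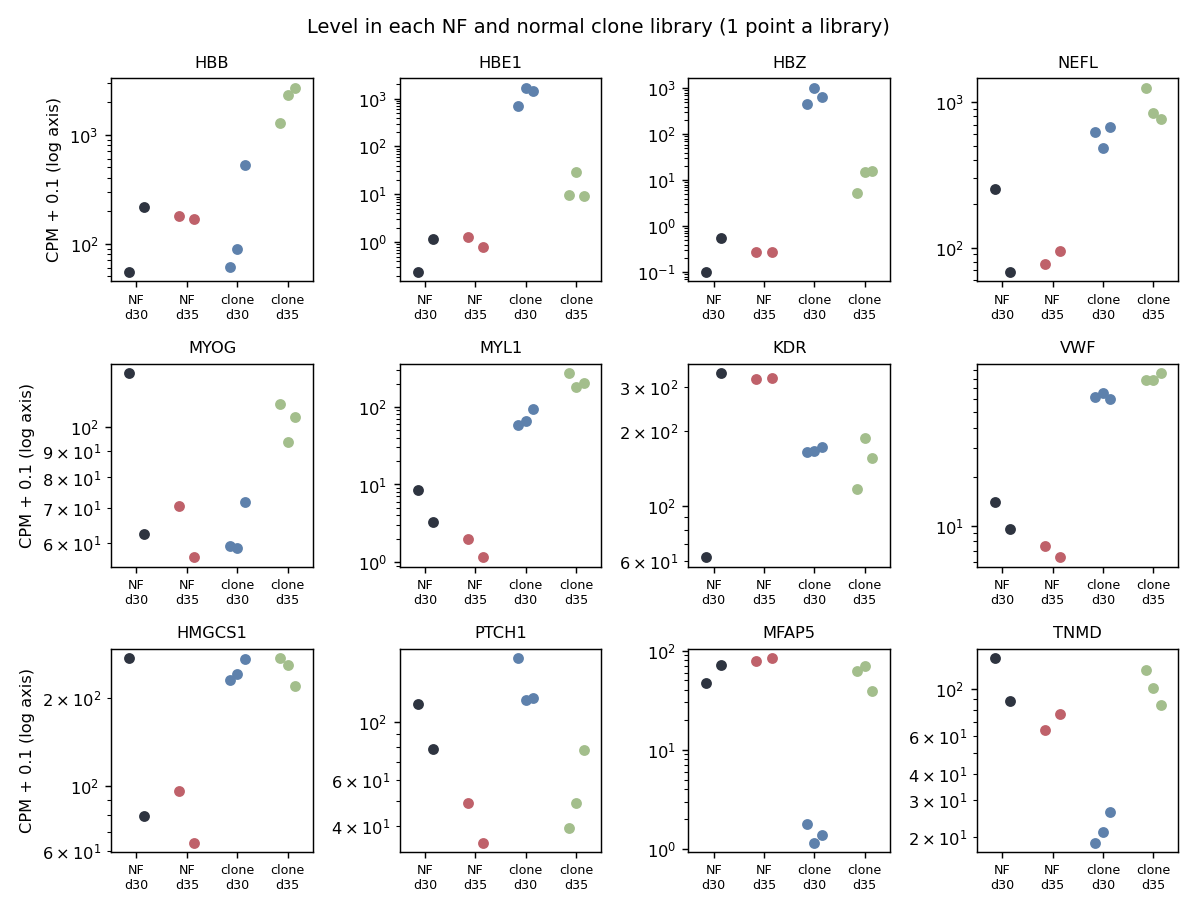
CPM plus 0.1 (log y axis) of 12 genes in each NF and normal clone library, by group and day (x axis; 1 point a library). HBE1 and HBZ are near 0 in the NF libraries of both days and fall between the days in the clones, while KDR and HMGCS1 set day 30 replicate 1 apart from the other 3 NF libraries.

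The normal clones share no library with the NF groups. They had 3 libraries a day against 2 in the NF fetuses, so the counts of called genes are not on equal terms. In the same fit the clones had 911 genes called between the days (9.19%), 530 higher (5.35%) and 381 lower (3.84%) at day 35. Of these, 481 (52.8%) had the same sign in the NF fetuses, where 50.15% of all genes did. Their median size was 1.06 in the clones and 0.20 in the NF fetuses, on the log2 scale. Since the clone test selected these genes, a large clone value was fixed in advance. Over all genes tested the median size was 0.40 in the clones and 0.22 in the NF fetuses. The 530 genes that rose in the clones had a median of 1.48 there and of 0.00 in the NF fetuses, and the 381 that fell had medians of -0.82 and -0.03. The clone count was lower without any one of the clone libraries: it was 2, 1 and 350 without day 30 replicates 1, 2 and 3, and 81, 384 and 508 without day 35 replicates 1, 2 and 3.

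The difference between the NF and the clone day effect was tested as an interaction, which called 2 of 9911 genes (0.0202%); 1414 had an unadjusted p under 0.05. Both are genes of fibrous connective tissue. MFAP5, a microfibril protein (chromosome 5, 62742520 to 62757522 on Sscrofa11.1), read 46.7 and 72, then 78.7 and 84.2 CPM in the NF fetuses. In the clones it read 1.69, 1.07 and 1.29 CPM at day 30 and 62.4, 69.3 and 39.3 CPM at day 35. All 4 NF libraries lay above the lowest day 35 clone and above every day 30 clone, and the day effects differed by -4.95 ± 0.52 (log2, SE; edgeR adjusted p = 0.0098). TNMD, a membrane protein of tendon cells (chromosome X, 82269323 to 82292083), read 140.4 and 88.1, then 64.1 and 76.2 CPM in the NF fetuses. In the clones it rose from 18.8, 21.2 and 26.2 CPM to 123.4, 100.9 and 84.2 CPM, and the effects differed by -2.92 ± 0.37 (edgeR adjusted p = 0.030). The number of such genes depended on which libraries shared the fit: it was 438 with the NF and normal groups alone, 473 without the shallowest abnormal clone library, 352 with DESeq2, 0 with limma, 0 without either day 35 NF library, and 1 and 39 without day 30 NF replicate 1 and 2.

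**Figure D4:**
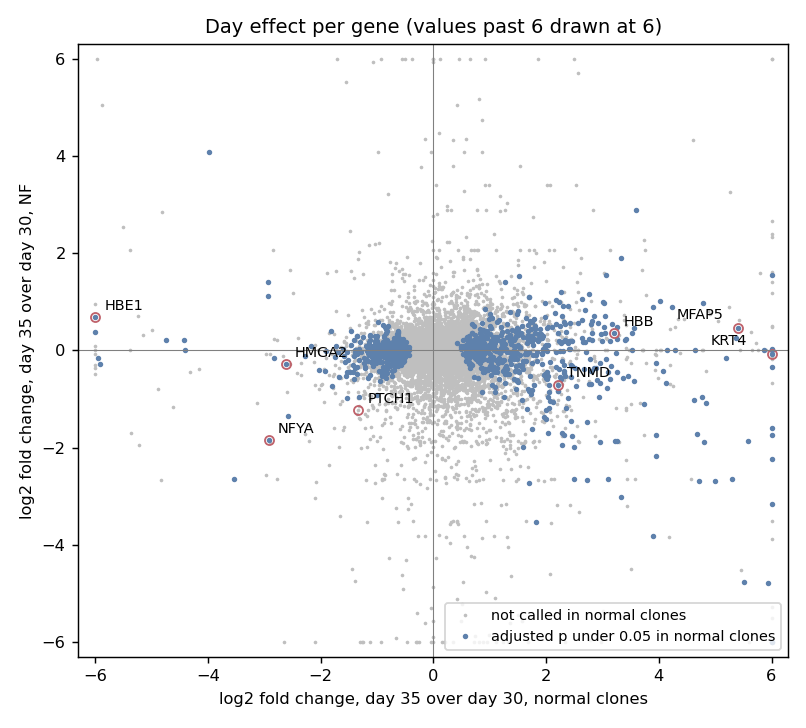
Log2 fold change between day 35 and day 30 of each tested gene in the normal clones (x axis) and in the NF fetuses (y axis), with values past 6 drawn at 6; blue points are the 911 genes called in the clones. The blue points were selected by their clone values, which fixes their spread along the x axis in advance. On the y axis they centre near 0, with medians of 1.48 (clones) and 0.00 (NF) for the genes that rose in the clones. The median size of the NF change of the blue points is 0.20, and some of them, such as NFYA, lie farther from 0.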

How the data were processed

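Pig fetus RNA sequencing libraries (14) were used; the day 6 embryo libraries were not. Per the submitters' processing notes, the authors used RSEM 1.2.4 and the build Sscrofa11.1 (susScr11). Per the file headers, each deposited table gives an expected count and a TPM for 65927 transcript records; its FPKM was not used. An aligner is not given in the sources used here. Each record was assigned to RefSeq genes of Sscrofa11.1 by accession without version: 25305 records (38.4%) in 14389 genes, whose expected counts were summed per gene and rounded. Fetus libraries held 0.41 to 7.65 M matched counts.

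All 14 libraries were fitted together, 1 mean for each group, with edgeR 4.0.16 (R 4.3.3; filterByExpr, TMM, quasi-likelihood F-test, Benjamini-Hochberg adjustment at 0.05). Each standard error given for an edgeR difference is the size of the log2 difference divided by the square root of its F statistic. The script was tested on simulated data. Alternatives used DESeq2 1.42.0, limma 3.58.1 on log2(TPM + 1), RLE scaling, other filters, sex, a replicate block, fewer groups and left-out libraries. The members and gene lists were chosen with earlier results of these data known. Genes named by rule were called genes whose mean log2 CPM reached 1 and whose groups had no overlap, up to 12 a direction (0 passed), called list members or else the 3 most abundant, called interactions, and globin, growth, liver, muscle and Y-linked genes set by name, as far as they were matched. Some genes that the rule names are not reported here.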

Additional observations from a re-analysis of the deposited data

Results flagged for a closer look

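The day effect differed between NF fetuses and normal clones for 2 genes by the interaction test. For MFAP5 the difference, NF minus clones, was -4.95 on the log2 scale, and for TNMD -2.92. The adjusted p of MFAP5 was 0.096 with limma, 0.117 and 0.189 without day 35 NF replicate 1 and 2, 0.0794 without day 30 clone replicate 2 and 0.0575 without day 35 clone replicate 1. For TNMD it was 0.0597 with limma, 0.161 with the replicate block and 0.101 to 0.201 without each of 7 of the 10 libraries in turn. The direction was the same in each of these settings. No cause was tested.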

How the results depend on the processing

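The count of NF genes called was 0 in the fit used, with RLE scaling, without a filter on low counts, with a filter at 1 CPM in 2 libraries, with the 2 NF groups alone, with the NF and normal groups, without the shallowest abnormal library and with version-matched records; 103 to 750 genes had an unadjusted p under 0.05 in those 7 alternatives. It was 11 with DESeq2, 1 with limma, 22 with labelled sex and 2 of 31328 with every record by itself. Leaving out 1 NF library gave 0 to 22 calls in the shared fit, and 4 to 153 in the fit of the NF groups for the day 30 libraries; the lone day 30 sample is then assumed to vary like the other groups. The listed genes gave 1 call with DESeq2, 4 with labelled sex, and 0 to 4 with a library left out. For the difference between NF and clone day effects the count of 2 became 352 with DESeq2, 0 with limma, 438 with the NF and normal groups alone, 473 without the shallowest abnormal library, 56 with labelled sex, 6 with version-matched records and 0 to 39 with a library left out. The clone count of 911 became 1588, 2677, 2524 and 179 with DESeq2, the NF and normal groups, no shallowest library and version-matched records, 181 with single records and 1 to 985 with a library left out. The cause was not tested. The single-record fit, the fits of the NF groups with a day 30 library left out, the NF count without the abnormal libraries and every alternative for the clone count were chosen after seeing the data.

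Replicate numbers paired no animals in the labels, and replicate 1 deviations of the NF groups correlated at 0.0664 over genes. With the replicate block the NF comparison had 0 calls (278 at an unadjusted p under 0.05), the difference 2 and the clones 409.

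Of 420 list medians recomputed under alternatives, 82 moved by more than the spread between libraries and 338 did not; 13 of the 30 moved without day 30 replicate 1 and 16 with version-matched records, which leave 2964 genes. No NF gene was called in the fit used, so there was no called NF direction that could change. Some list medians did change sign. Without day 30 replicate 1 the skeletal muscle median went from -0.37 to 0.10 and the neural progenitor median from -0.25 to 0.32. With 2 libraries a day and a median standard error of 0.37, small changes could not be detected, and larger ones could be missed as well. The 494 genes with a log2 difference past 1 and no overlap between the days gave 0 calls. A count of 0 thus does not show that large day effects were absent. Records without a matched accession (33.5% to 34% of NF counts) were not analysed here.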
